A study of Mus musculus with 6 samples.

Results

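The replication-dependent histone genes are the clustered genes whose messages supply the histones packed onto newly copied DNA. They were taken by symbol from RefSeq's GRCm38 gene table, which matches the mm10 build of the peaks: the protein-coding genes H1f1 to H1f6 and those beginning H2ac, H2bc, H3c or H4c followed by a digit. This gave 63 of 21774 protein-coding genes, 53 on chr13 and 10 on chr3, with 6 genes for H1, 17 for H2A, 16 for H2B, 12 for H3 and 12 for H4. No gene on chr11 had such a symbol, since the histone genes there are annotated under other names. The chromatin data came from TrkC proprioceptive neurons, sensory neurons of the dorsal root ganglion whose mature form reports muscle stretch, taken at stage E11.5. The embryos were Runx3-BAC-GFP-CB6 transgenic mice, and all groups share this genotype and stage. Cells were fixed with paraformaldehyde and sorted for GFP driven by a Runx3 bacterial artificial chromosome, so the sorted population is the one that this transgene labels. Open chromatin (ATAC-seq), acetylation of lysine 27 of histone H3 (H3K27ac, ChIP-seq with antibody ab4729) and input DNA had 2 samples each, with 50000 cells per preparation.

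The core histones H2A, H2B, H3 and H4 form the protein spool of the nucleosome, and H1 binds the DNA where it enters and leaves the spool. Replication-dependent histone genes are short, mostly lack introns, and end their messages in a stem-loop in place of a poly(A) tail. They are transcribed in S phase within a nuclear body organised by NPAT, and other histone genes supply non-dividing cells. The dorsal root ganglion of this stage holds dividing progenitors beside neurons that have left the cell cycle. H3K27ac marks active promoters and enhancers, and ATAC-seq marks DNA that a transposase can reach.

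The values are positions of peaks: 1 consensus list of 43739 ATAC peaks and 1 of 19928 H3K27ac peaks. Neither list carries signal or values per replicate, so the depth per sample is unknown, the replicates of an assay cannot be compared, and no test was made. A gene is called open or acetylated here where an ATAC or an H3K27ac peak lies within 1 kb of either annotated end. In a pool of cells, a missing peak in few open cells and one in weakly open cells cannot be told apart. By this rule 60.7% of all protein-coding genes are open and 49.5% acetylated. Of 8 sensory neuron markers, 7 were open and 6 acetylated, and the gene of TrkC itself, Ntrk3, held 7 ATAC and 4 H3K27ac peaks inside its span. Runx3, the gene behind the reporter, was open but had its 3 H3K27ac peaks inside the span. Glial and neural crest markers were open in 3 and acetylated in 4 of 5 cases, with Sox10 and Foxd3 acetylated. Of 3 mesenchymal markers 2 were open and 1, Twist1, acetylated, and of 3 germ cell markers Dazl had both marks and the others neither. Of 3 endothelial and 3 blood markers, 1 of each kind was open and none acetylated at an end, though Pecam1 and Ptprc each held 1 H3K27ac peak inside the span. Positions are on mm10, counted from 1.

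The promoters of some histone types differed in motif content, which is shown first because the later results refer to it. Sequences are from the RefSeq promoter table of GRCm38.p6, which spans 250 bases before to 50 bases after an annotated start. Of the 63 genes, 56 had a start listed at an outer end of the annotated span, and only these were counted. The starts listed for H2bc22 and H2bc6 lie inside their spans, so these genes were left out. Each sequence is written 5′ to 3′ on the strand of the named gene. Capitals mark matches, on either strand, to the motifs named with each. The first stretch is everything between the starts of H2bc13, transcribed leftward, and H2ac13, transcribed rightward (chr13:21716184-21716411, plus strand), and its capitals are CCAAT boxes, the site of the factor NF-Y:
H2bc13 to H2ac13: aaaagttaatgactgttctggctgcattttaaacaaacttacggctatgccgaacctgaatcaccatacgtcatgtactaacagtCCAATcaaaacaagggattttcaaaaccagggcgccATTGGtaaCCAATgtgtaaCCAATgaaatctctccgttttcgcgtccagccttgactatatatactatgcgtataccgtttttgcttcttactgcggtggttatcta
H1f3, the 150 bases before the start (chr13:23554882-23555031, plus strand), with the TATA box TATAAA and the CCAAT and H1 boxes (CCAAT and AAACACA) in capitals: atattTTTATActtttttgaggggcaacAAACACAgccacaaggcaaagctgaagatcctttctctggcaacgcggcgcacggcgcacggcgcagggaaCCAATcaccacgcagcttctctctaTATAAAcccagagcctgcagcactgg
H4c4, the 150 bases before the start (chr13:23581418-23581567, plus strand), with TATAAA and CCAAT, the Sp1 box GGGCGG and the H4 element GGTCC in capitals: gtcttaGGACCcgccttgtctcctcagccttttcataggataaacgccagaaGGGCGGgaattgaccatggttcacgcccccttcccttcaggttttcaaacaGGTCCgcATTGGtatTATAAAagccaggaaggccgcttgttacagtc
The stretch between H2bc13 and H2ac13 held 4 matches to CCAAT, whereas H4c4 held 1 match to CCAAT and 2 to GGTCC.

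The shares of promoters with a motif differed between types for some motifs, and H3 held no motif that the other types lacked. CCAAT stood in 48 of the 56 histone promoters (85.7%) and in 40.3% of 10583 promoters. These are the protein-coding genes with a start listed at an end of the span, called all promoters here. It was present at all 6 H1, 17 H2A, 12 H2B and 10 H3 genes with a promoter, and at 3 of 11 H4 genes (H4c4, H4c3 and H4c1). GGTCC, from the element known from H4 promoters, showed the opposite order, with 10 of 11 H4 genes (90.9%) and 46.3% of all promoters. The octamer ATTTGCAT, the site of the POU factor OCT1, occurred at 6 H2A and 6 H2B genes and at no H1, H3 or H4 gene, against 2.03% of all promoters. AAACACA was found at 5 of 6 H1 genes, H1f1 being without it, at 2 H2A genes (H2ac1 and H2ac4), at 2 H2B genes (H2bc1 and H2bc14) and at 6.95% of all promoters. TATAAA was present at 33 genes (58.9%, against 16.9%), and GGGCGG at 22 (39.3%, against 40.5%). Of the E2F sites searched, TTTCGCGC occurred at 8 genes, 5 of H2A and 3 of H2B (14.3%, against 0.472%), and TTTGGCGC at 0 (against 0.557%). These motifs are short and match many promoters. None of them holds another, but divergent neighbours share promoter bases and are not separate counts. The median GC content was 45.3%, below the 54% of all promoters, while the ratio of observed to expected CpG was 0.740 against 0.465.

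**Figure D1:**
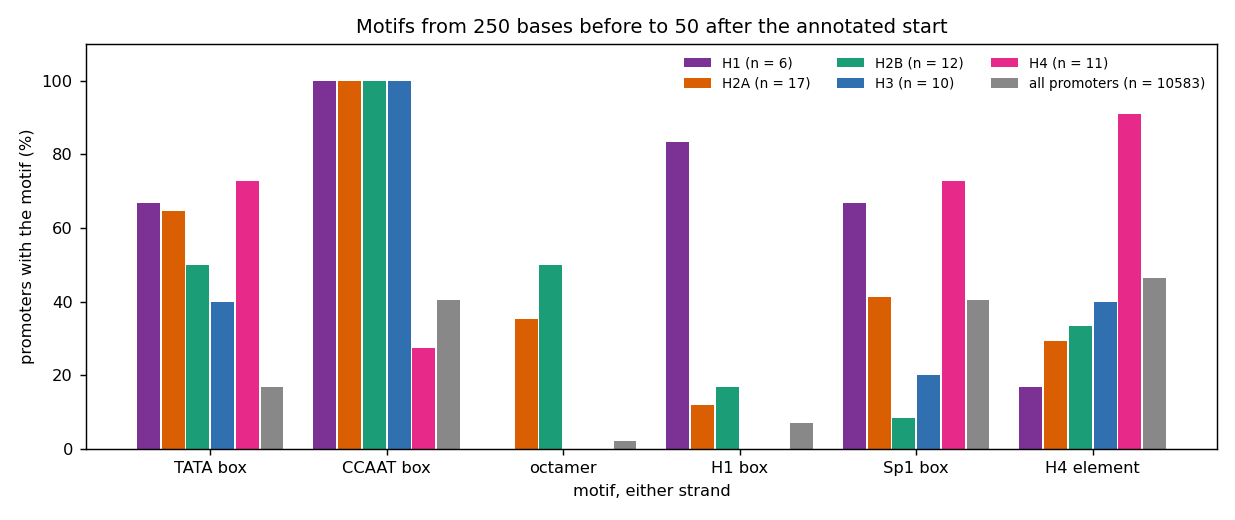
Share of promoters holding each motif on either strand (y axis, percent), from 250 bases before to 50 after the annotated start, for 5 histone types and for all 10583 promoters with a start listed at an end of the span (grey). CCAAT reaches 100% for H1, H2A, H2B and H3 but not for H4, while the H4 element reaches 90.9% for H4.

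Nearly all histone genes were open at an end in these cells, and most were acetylated. An ATAC peak lay at an end of 59 genes (93.7%, against 60.7% of all protein-coding genes) and an H3K27ac peak at 54 (85.7%, against 49.5%). Both marks were present at 51 (81%, against 48%), ATAC alone at 8, H3K27ac alone at 3 and neither at 1, H1f6. The genes are short, with a median span of 492 bp, and 58 span at most 1 kb, a length at which few genes of the annotation are open. Of the 1563 protein-coding genes of at most 1 kb, histone genes included, 8.13% had an ATAC peak and 5.37% an H3K27ac peak at an end. ATAC was missing at both ends of H1f1, H1f5, H1f6 and H2bc6. Those without H3K27ac were H3c14 on chr3, the neighbours H2bc23, H2ac23, H4c17, H4c18 and H2ac24 on chr13, and H2ac1, H2bc1 and H1f6, which are known mainly from testis.

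**Figure D2:**
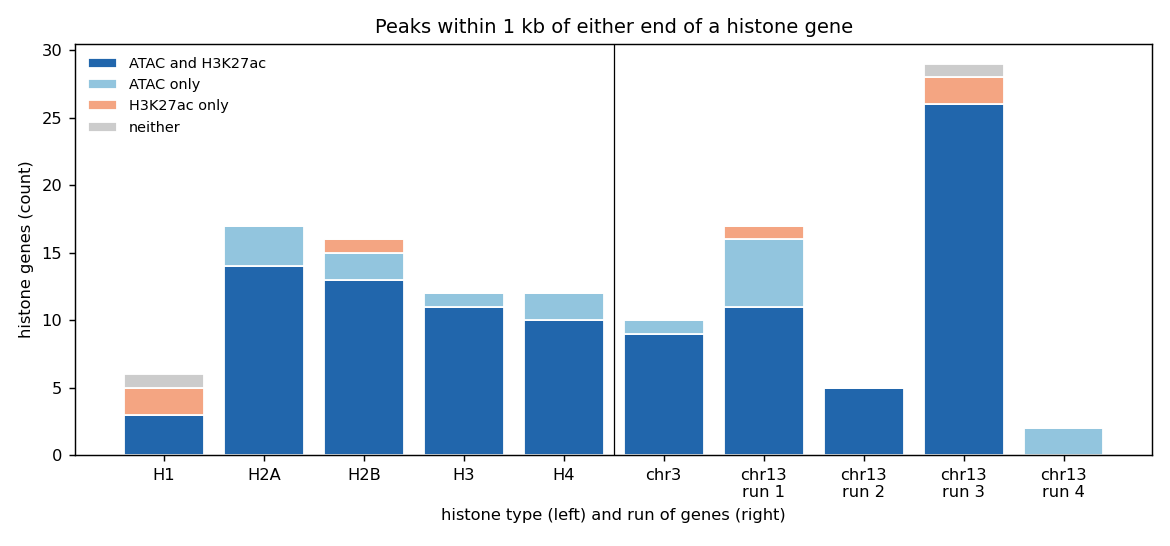
Number of histone genes (y axis) with ATAC and H3K27ac, ATAC only, H3K27ac only or neither within 1 kb of an annotated end, by histone type and by run of neighbouring genes. H1 has the lowest share with ATAC, 3 of 6, and the genes with ATAC only gather in chr13 run 1, with 5, and run 4, with 2.

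All 17 H2A genes were open, and 14 were acetylated. The ATAC peaks at their ends had a median width of 368 bp, and a median of 70.3% of the H2A span lay under ATAC. The H2A peaks ranged from 160 bp beside H2ac1 to 1008 bp at H2ac22. H2ac22 and its divergent partner H2bc22 shared that 1008 bp ATAC peak, the widest at any histone gene, under 1228 bp of H3K27ac. H2ac6 had ATAC peaks of 397 and 428 bp under 2352 bp of H3K27ac, and H2ac10 had 265 and 245 bp under 2070 bp. On chr3, H2ac20 and H2ac21 are transcribed toward each other, and each had its own ATAC peak, 329 bp and 234 bp. At each of these genes the open stretch was narrower than the acetylated one around it.

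Of 16 H2B genes, 15 were open and 14 acetylated, with a median ATAC width of 337 bp. The exception for ATAC was H2bc6, whose annotated span of 37455 bp is the longest of all histone genes. No ATAC peak lay within 1 kb of its ends, but an ATAC peak of 371 bp lay inside (chr13:23585595-23585965), and its midpoint was 190 bp downstream of a second start that the promoter table lists for this gene. That peak stood within the widest H3K27ac peak at any histone gene, 3401 bp (chr13:23583498-23586898). Long annotated spans also occurred at H2bc22 (14079 bp), H2bc4 (8282 bp), H2bc23 (3788 bp) and H2bc21 (2667 bp). At these 5 H2B genes the windows at the annotated ends therefore lie further apart than at the other members of the family. H2bc14 had ATAC peaks of 216 and 409 bp, the wider over its body, under 1514 bp of H3K27ac. H2bc9, with 353 bp of ATAC, shared 1843 bp of H3K27ac with H3c7, and H2bc18, at the end of the chr3 group, lay by the narrowest ATAC peak of all, 134 bp, beside others of 455 and 353 bp.

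All 12 H3 genes were open, and all but H3c14 were acetylated. Their median widths were 357 bp for ATAC and 2459 bp for H3K27ac, the latter the highest of the 5 types. All of these H3K27ac peaks except those at H3c6 and H3c11 were shared with a gene of another type. H3c6, with 587 bp of ATAC, stood alone at an H3K27ac peak of 2231 bp, which covered 41.9% of its span. H3c3 shared 3282 bp of H3K27ac with H2bc3, and H3c2 shared 2860 bp with H2ac4. At the lower end, H3c11 had 707 bp of H3K27ac around an ATAC peak of 320 bp, and H3c8 had 5.49% of its span under ATAC, since its 245 bp peak lay mostly outside the span. H3c1 and H4c1, near the end of run 3, had ATAC peaks of 339 and 807 bp, each over its own span, under a shared 1811 bp of H3K27ac.

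H4 genes had the highest median ATAC width of the types and the lowest median H3K27ac width. All 12 were open, with a median ATAC width of 449 bp and a median of 81.25% of the span under ATAC, the highest of the types. Their median H3K27ac width was 1245.5 bp, the lowest. These medians count every peak within 1 kb of an end, including peaks shared with neighbours. At H4 genes only the H3K27ac peaks of H4c9 and H4c1 were shared with another histone gene, whereas at H3 genes most were. The 3 narrowest H3K27ac peaks at any histone gene all belonged to H4 genes: 525 bp at H4c6, 577 bp at H4c4 and 595 bp at H4c2. The ATAC peaks at these genes were 473, 460 and 194 bp wide, so at H4c6 the acetylated stretch was hardly wider than the open one. At H4c6, H4c4 and H4c3, 70%, 65% and 51.4% of the ATAC peak lay under H3K27ac, and the rest reached beyond it. Compared with H4c6 and H4c4, the difference in width was larger at H4c3 (449 bp of ATAC and 808 bp of H3K27ac), H4c12 (436 and 1060 bp) and H4c11 (469 and 1431 bp). It was largest of the H4 genes at H4c9, whose 434 bp peak lay in a stretch of 3183 bp shared with H2ac11 and H2bc11. H4c8 had ATAC peaks of 488 and 185 bp, the latter among the 3 narrowest, under 2225 bp. On chr3, H4c14 had 484 bp of ATAC under 2054 bp of H3K27ac, and a second ATAC peak of 223 bp outside that stretch. H4c17 and H4c18 were open but lacked H3K27ac.

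The linker histone genes had ATAC peaks less regularly than acetylation. Of the 6 H1 genes, 5 were acetylated but 3 were open: H1f2 (438 and 317 bp of ATAC), H1f3 (533 bp) and H1f4 (409 bp). Their H3K27ac peaks were 1541, 863 and 2019 bp wide. H1f5 lay wholly under 1937 bp of H3K27ac with no ATAC peak, and the nearest was 2419 bp away, at H3c11. H1f1 had 761 bp of H3K27ac, and its nearest ATAC peak was 1341 bp away, at H3c1. With a window of 2.5 kb, the neighbours' peaks made all 6 H1 genes open, and with the wider 50% of each list 3 were open and 3 acetylated. The core types had ATAC over the span of every gene except H2ac1 and H2bc21, while H1 had it over the span of 3 of 6.

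Where a start was annotated, the open stretch was centred further into the gene than at most protein-coding genes. Of the 56 genes with a start listed at an end of the span, 53 had an ATAC peak within 1 kb of it. The nearest midpoint lay at a median of 165 bp downstream (quartiles 95 and 222 bp). Over the 5602 genes of the annotation measured the same way it lay at 14 bp (quartiles -65 and 112.75 bp). The midpoint was downstream at 43 of the 53 histone genes (81.1%, against 54.7%), and the start base itself lay inside an ATAC peak at 29 (54.7%, against 84.8%). At 18 histone genes (34%), no base of the 250 before the start was under ATAC, a share close to the 33.3% of other genes of at most 1 kb and above the 11.6% of all genes. The medians were 36 open bases in the 250 before the start and 335 in the 500 from the start onward, where all genes had 168 and 232.5. The 57 other genes of at most 1 kb that had ATAC near the start had medians of 105 and 181 open bases, a median midpoint of 55 bp, a downstream midpoint at 71.9% and the start inside a peak at 66.7%. Coverage of the histone genes was highest, 92.5%, at 237 bp downstream, and that of all genes, 84.9%, at 6 bp upstream. RefSeq starts were not measured in these cells, and an annotated start that lies upstream or downstream of the one used would shift each of these positions.

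**Figure D3:**
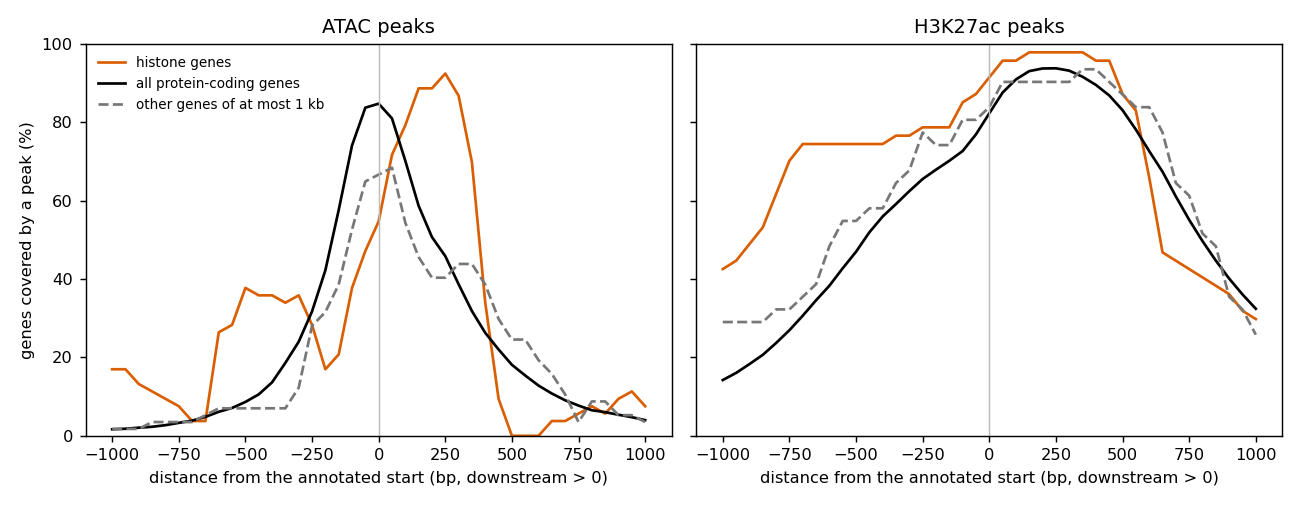
Share of genes covered by a peak (y axis, percent) against distance from the annotated start (x axis, bp), for histone genes, all protein-coding genes and other genes of at most 1 kb, each with a peak of that assay within 1 kb. The ATAC curve of the histone genes is highest at 237 bp downstream and rises again upstream, while H3K27ac covers start and body alike.

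The types differed in how far the open stretch reached over the start. H4 genes had the start inside ATAC in 10 of 11 cases and H1 genes in 3 of 3. The counts were 6 of 10 for H3, 7 of 17 for H2A and 3 of 12 for H2B. The median midpoint lay 109 bp downstream for H4, 133 bp for H1, 162 bp for H3, 195 bp for H2A and 221 bp for H2B. H2B genes had a median of 0 open bases in the 250 before the start and H4 genes 114. H3K27ac had no such gap: of 47 genes with H3K27ac within 1 kb of the start, 43 had the start inside the peak (91.5%, against 82.3% of 4623 genes).

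**Figure D4:**
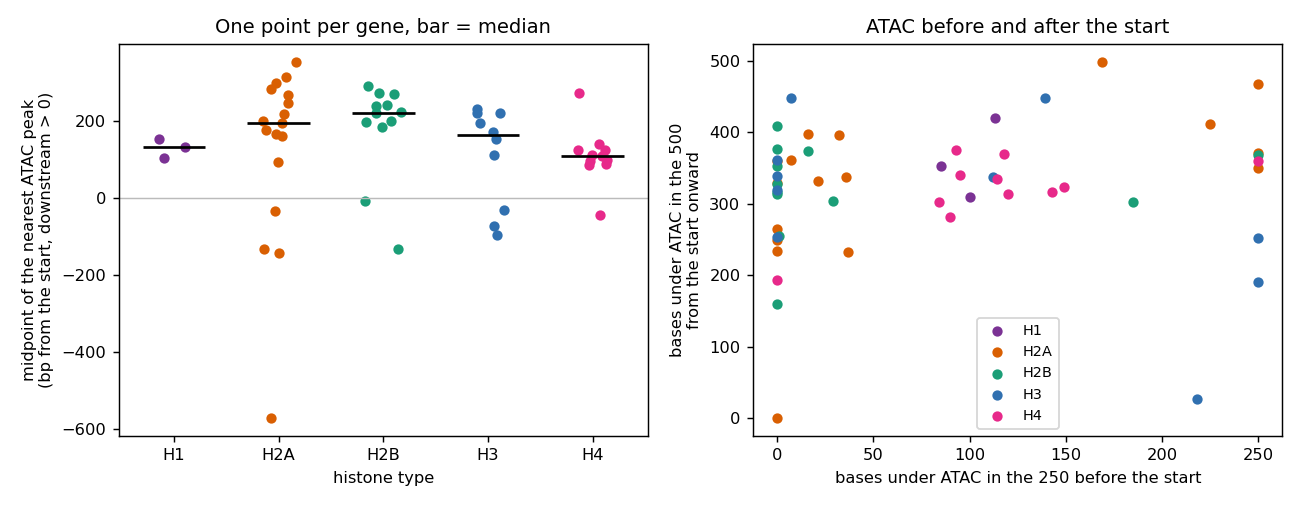
Left, midpoint of the ATAC peak nearest to the annotated start (y axis, bp) by histone type, with 1 point per gene and the median as a bar. Right, open bases in the 500 from the start onward (y axis) against those in the 250 before it (x axis); many H2B and H2A genes sit at 0 before the start, while 9 of 11 H4 genes sit between 84 and 149.

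The stretch before the start was also measured between genes that face away from each other. Among the 56 genes with a start there were 8 such divergent pairs, all of 1 H2A and 1 H2B gene, with 163 to 280 bp between their starts (median 178 bp). At 7 pairs both bodies were under ATAC. At 5 of the 8, H2bc1 and H2ac1 among them, the stretch between the starts held no open base. The pair H2ac15 and H2bc15 had ATAC peaks of 360 and 255 bp, one over each body, and none of the 163 bp between. The same split was seen at H2ac12 and H2bc12 (332 and 377 bp of ATAC, none of 177 bp between), H2ac8 and H2bc8 (233 and 328 bp, none of 179 bp) and H2bc7 and H2ac7 (317 and 337 bp, none of 173 bp). At H2bc13 and H2ac13, whose shared stretch is printed above, 7 of 228 bp were open, and at H2ac11 and H2bc11 14 of 248 bp. Each of these 6 pairs was fully covered, starts and all, by a single H3K27ac peak. The pair H2bc23 and H2ac23 differed on both counts, with 1 ATAC peak of 1004 bp across all 167 bp and no H3K27ac. At the remaining pair, H2bc1 and H2ac1, only H2bc1 had ATAC over its body. A further pair, H2ac22 and H2bc22, was not among the 8, because the start listed for H2bc22 is not an end of its annotated span. By that listed start they lie 239 bp apart, and the 1008 bp ATAC peak and the 1228 bp H3K27ac peak each covered all 239 bp, so this pair had no gap. The other genes without a start were not assessed. How the ATAC fragments were trimmed, shifted and called is not given in the sources used here, and its part in the gap was not tested.

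ATAC peaks at histone genes were of ordinary width. The H3K27ac peaks, many of which reached more than 1 histone gene, had a higher median width than those at all gene ends. The 61 ATAC peaks had a median of 372 bp (quartiles 314 and 455 bp), against 365 bp (235 and 524 bp) for 15112 peaks at all gene ends. The 34 H3K27ac peaks had a median of 1827 bp (quartiles 1104 and 2432 bp), against 1248 bp (805 and 1796.5 bp) for 9523. Of the ATAC peaks, 54 overlapped H3K27ac (88.5%, with a 95% Wilson interval for counting error alone of 78.2 to 94.3), against 72.8% at all gene ends. Of the H3K27ac peaks, 32 overlapped ATAC (94.1%, against 95.2%), with a mean of 1.62 ATAC peaks each against 1.24. The interval takes peaks as separate draws, while neighbouring genes can have the same peak within 1 kb. By that window 45 genes shared an ATAC peak with another histone gene and 38 shared an H3K27ac peak. With a window of 0.5 kb the counts were 31 and 38. Only the ATAC peaks of 1008 bp at H2ac22 and 1004 bp at H2bc23 overlapped the spans of 2 histone genes.

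Of the 34 H3K27ac peaks, 17 reached 1 histone gene, 13 reached 2 and 4 reached 3. The median width given above takes all 34 together and is not the width at a single gene. Those that reached 3 were 2858 to 3183 bp wide, and those that reached 1 ran from 525 bp at H4c6 to 3401 bp at H2bc6. The peak over H4c9, H2ac11 and H2bc11 was 3183 bp wide and held ATAC peaks of 434, 405 and 381 bp. The peak over H2bc13, H2ac13 and H3c10 was 3008 bp wide, with 304, 368 and 253 bp of ATAC, and that over H2bc7, H2ac7 and H3c4 was 2987 bp wide, with 317, 337 and 361 bp. On chr3, a peak of 2858 bp reached H2ac21, H2ac20 and H2bc21. In the first 3 of these peaks each gene had 1 ATAC peak of its own inside the shared acetylated stretch.

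The genes fell into 5 runs when split wherever neighbours lay over 100 kb apart. On chr13, run 1 spans 118 kb with 17 genes (chr13:21715711-21833475), run 2 spans 8.54 kb with 5 genes (chr13:22035122-22043658), run 3 spans 233 kb with 29 genes (chr13:23531044-23764412) and run 4 spans 1.19 kb with 2 genes (chr13:23933725-23934913). The chr3 run spans 50.3 kb with 10 genes (chr3:96219885-96270192). Neighbours within a run lay a median of 1798 bp apart, and the gaps between the chr13 runs were 202, 1487 and 169 kb. The only other protein-coding gene within a run was Hfe, a gene of iron regulation, in run 3.

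Per kb, peaks were dense within the runs, which are cut from the first to the last of closely packed genes. They stood almost entirely at histone genes. Run 1 held 12.7 ATAC and 6.79 H3K27ac peaks per 100 kb, run 3 held 13.7 and 8.14, and the chr3 run held 23.9 and 11.9. The whole of chr13 held 1.56 and 0.708 per 100 kb, and the whole of chr3 1.36 and 0.635. Run 2, with its 5 genes in 8.54 kb, held 58.6 and 23.4. Run 4 held 1 ATAC and 0 H3K27ac peaks. Per gene, run 1 held 15 ATAC peaks for 17 genes, run 3 32 for 29 and the chr3 run 12 for 10. Peaks per gene were not denser in the runs: all of chr13 held 1820 ATAC peaks for 53 histone and 776 other protein-coding genes. All of chr3 held 2130 for 10 and 973. All 15 ATAC peaks of run 1 and all 5 of run 2 were at histone gene ends, as were 29 of 32 in run 3 and 11 of 12 on chr3. The others in run 3 were the peak inside H2bc6 and peaks of 171 and 290 bp at Hfe, and on chr3 a peak of 126 bp within the noncoding RNA gene Gm20627. The only H3K27ac peak in a run away from a histone gene end was 992 bp wide and lay 2563 bp from H2bc21 (chr3:96226301-96227292).

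**Figure D5:**
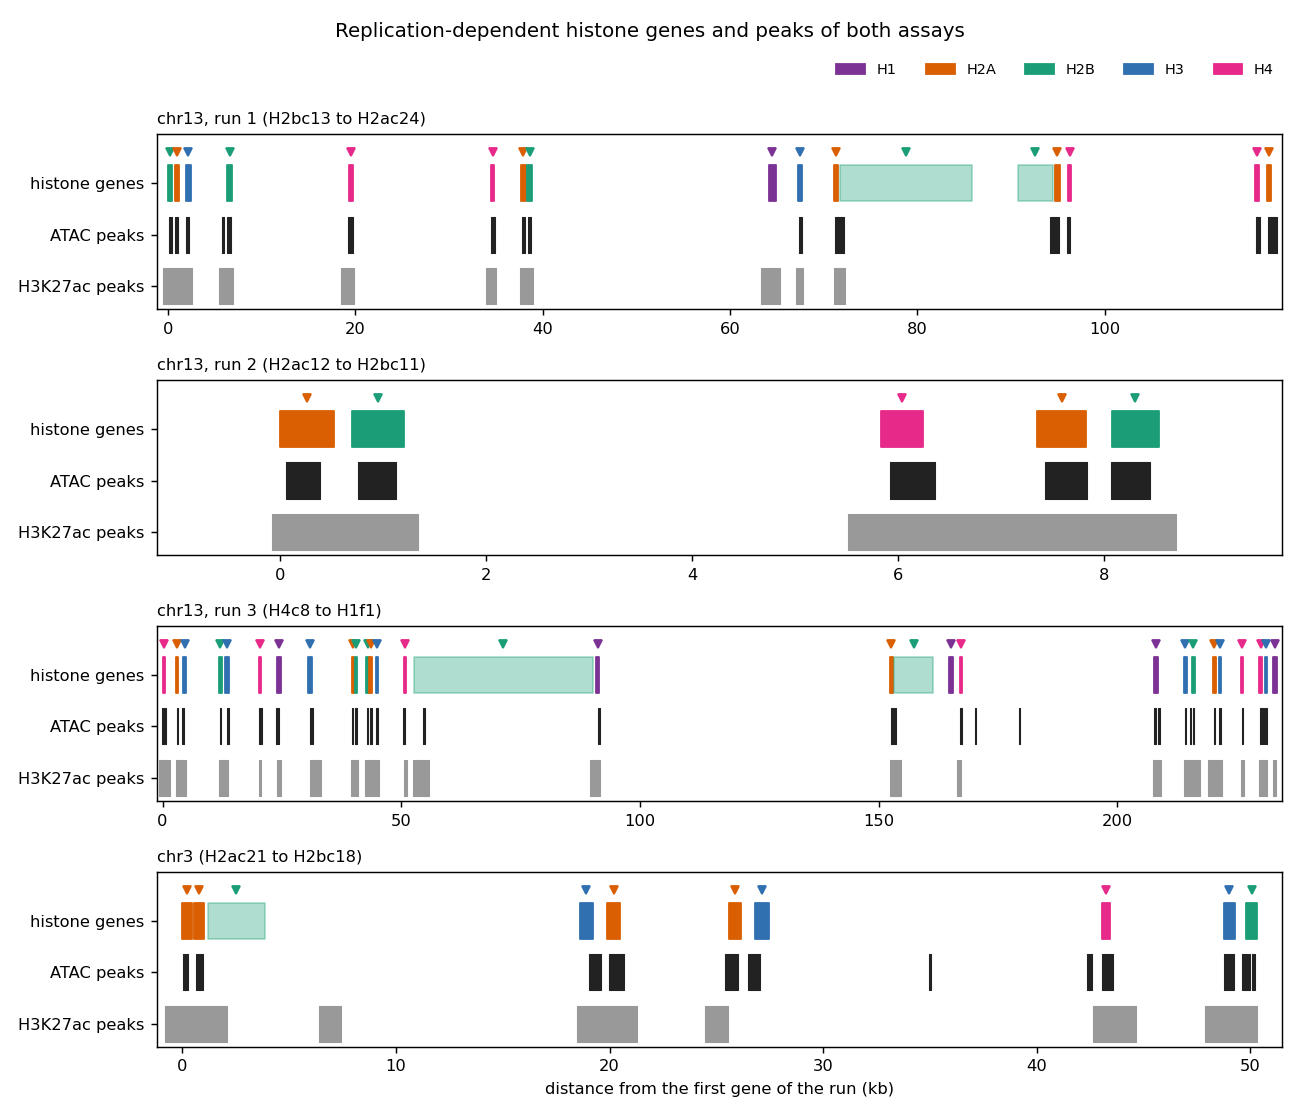
Histone genes (coloured by type, pale for spans over 2 kb, with a marker at each midpoint), ATAC peaks (black) and H3K27ac peaks (grey) along 3 runs of chr13 and the run of chr3, with distance from the first gene in kb. Most peaks sit at the genes, and the right end of chr13 run 1 has ATAC peaks but no H3K27ac peak.

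The counts differed by run, more for H3K27ac than for ATAC. All 5 genes of run 2 had both marks. In run 3, 26 of 29 were open and 28 acetylated, with H1f1, H1f6 and H2bc6 the ones not open. On chr3, 10 of 10 were open and 9 acetylated. In run 1, 16 of 17 were open and 12 acetylated, and in run 4 both genes were counted open and neither acetylated.

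The missing H3K27ac of run 1 was a single stretch. From H2bc23 to H2ac24, 5 neighbouring genes had ATAC but no H3K27ac, and the last H3K27ac peak of the run was the 1228 bp one at H2ac22, 18392 bp from H2bc23. Their ATAC peaks were 1004 bp wide at H2bc23 and H2ac23, 372 bp at H4c17, 386 bp at H4c18 and 987 bp at H2ac24, so those at the H4 genes were of ordinary width. The 1004 and 987 bp peaks are, after the 1008 bp at H2ac22, the widest at any histone gene. Beyond H2ac24, across the 987 bp peak, lies H4bc24, which the symbol rule does not take and which spans 3788 bp, as H2bc23 does. The stretch thus holds the same order, an H4 gene, an H2A gene, a wide ATAC peak and a gene of 3788 bp, in mirror image.

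The mirrored genes also shared long stretches of promoter sequence, as seen in the 150 bases before the starts of H2ac23 (chr13:21810217-21810366, plus strand) and H2ac24 (chr13:21833476-21833625, minus strand), with CCAAT in capitals:
H2ac23: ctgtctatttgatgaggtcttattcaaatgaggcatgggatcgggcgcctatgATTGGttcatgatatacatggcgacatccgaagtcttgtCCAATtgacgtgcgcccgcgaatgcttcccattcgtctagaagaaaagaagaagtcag
H2ac24: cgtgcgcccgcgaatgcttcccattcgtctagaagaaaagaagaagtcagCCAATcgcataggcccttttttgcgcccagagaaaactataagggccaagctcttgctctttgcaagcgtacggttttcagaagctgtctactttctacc
The last bases of H2ac23 are the first of H2ac24, since the annotated starts differ by 100 bases between the copies. The longest run of identical bases shared by the 2 promoter windows was 200 of the 300 bases, and it was 285 between H4c17 and H4c18 and 233 between H2bc23 and the reverse strand of H2ac24.

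The same was true of the other gene without H3K27ac outside the testis variants. On chr3, H3c14 and H2ac18 lie in mirror image to H3c15 and H2ac19, and the promoter windows shared runs of 231 bases (H3c14 and H3c15) and 219 bases (H2ac18 and H2ac19). ATAC was alike at both copies, with 637 and 565 bp at H2ac18 and H3c14 and 527 and 668 bp at H3c15 and H2ac19. H3K27ac was not: a peak of 2850 bp covered H3c15 and H2ac19 whole, while H2ac18 had 1063 bp that stopped before its span and H3c14, 1273 bp further on from that peak, had none. Over the 56 genes, 9 had a promoter run of at least 100 identical bases (200 to 285) with another histone gene elsewhere, and 6 of them lacked H3K27ac. Of the other 47, whose longest runs were 11 to 72 bases, 3 lacked it, all testis variants. The 9 genes all lie in the mirrored stretches of chr13 and chr3 and share their runs with one another, so they are not separate counts. How reads that match several places were handled is not given in the sources used here, and its part in the missing H3K27ac peaks was not tested.

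The testis variants were the other genes without H3K27ac. H2ac1 (TH2A) and H2bc1 (TH2B) are a divergent pair that replaces the usual histones in male germ cells, and H1f6 (H1t) is the linker histone of spermatocytes. None of these 3 was acetylated, while 54 of the other 60 were. The pair lies alone as run 4, with the nearest H3K27ac peak 16817 bp from H2bc1. Its one ATAC peak, 160 bp wide and the second narrowest at any histone gene, lay over the body of H2bc1 (37% of its 432 bp), and H2ac1 counted as open only because that peak was within 1 kb of it. H1f6 lay within run 3, between H2bc4 and H4c3, and had neither mark. The H3K27ac peak of H4c3 began 1002 bp from H1f6, just outside the window, and the ATAC peak of H4c3 1579 bp from it. Hence with a window of 2.5 kb H1f6 counted as acetylated, and with the wider 50% of each list none of the 3 was open.

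The promoters of the testis variants nevertheless held several motifs of their types, as these stretches show, with 200 bases before the start of H2ac1 (chr13:23934237-23934436, plus strand; TATAAA and CCAAT and the octamer in capitals) and 150 before that of H1f6 (chr13:23695661-23695810, plus strand; CCAAT, the H1 box and the Sp1 box in capitals):
H2ac1: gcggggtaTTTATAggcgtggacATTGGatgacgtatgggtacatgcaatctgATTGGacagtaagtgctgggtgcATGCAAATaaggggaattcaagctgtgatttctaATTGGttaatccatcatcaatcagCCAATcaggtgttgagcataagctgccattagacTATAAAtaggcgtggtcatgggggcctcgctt
H1f6: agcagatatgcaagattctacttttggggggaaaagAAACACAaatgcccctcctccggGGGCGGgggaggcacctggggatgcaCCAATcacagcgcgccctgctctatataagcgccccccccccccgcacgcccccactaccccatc
H2ac1 held 4 matches to CCAAT, as many as the stretch between H2bc13 and H2ac13, and 1 to the octamer. In the full promoter window H2ac1 and H2bc1 also held AAACACA, the H1 box. H1f6 held no TATAAA there, a motif present at 4 of 6 H1 genes. The CpG ratio was 0.549 at H2ac1, 0.455 at H2bc1 and 0.450 at H1f6, near the median of all promoters (0.465) and below the histone median (0.740).

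On chr11, where the rule takes no gene, 3 histone genes under other symbols lay within 13.4 kb (chr11:58948911-58962273). H2bu2, an H2B gene, had ATAC peaks of 95, 137, 467 and 144 bp under 2932 bp of H3K27ac, and H2aw, an H2A gene, had 398 bp of ATAC under 2840 bp. H3f4, the gene of the testis form of H3, had neither. H4f16, an H4 gene on chr6, had 140 and 492 bp of ATAC under 1380 bp of H3K27ac. H4bc24 on chr13 had the 987 bp ATAC peak it shares with H2ac24 and no H3K27ac.

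Genes that serve histone supply were mostly open and acetylated, where 48% of all protein-coding genes had both marks. All 21 genes of histone message synthesis and processing had both marks at an end, among them Npat, the organiser of the nuclear body, Slbp, which binds the stem-loop, and Casp8ap2. So did all 12 histone chaperones, such as Nasp, Asf1b and Chaf1a. Of 18 genes of S phase and proliferation, 18 were open and 17 acetylated, the exception being Mcm3, a subunit of the replicative helicase. Of 11 replication-independent histone genes, 10 had both marks, and H3f3b had neither at its annotated ends but 1 ATAC and 1 H3K27ac peak inside its span. Of 7 germline histone variants outside the rule none had either mark. Of all protein-coding genes 60.7% were open, and of those of at most 1 kb 8.13%, though H1f7 and H1f8 among the variants span more than 1 kb. Whether dividing cells in the sort contributed the peaks at the histone genes was not tested, and the lists hold no values per cell.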

How the data were processed

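ATAC-seq, H3K27ac ChIP-seq and input DNA were made from sorted, fixed cells, with 2 samples each. Per the submitters' processing notes, cutadapt 1.18, Bowtie2 2.3.5.1, MACS2 and bedtools were used on mm10. Apart from names, the authors deposited only peak positions in bp, with no counts or signal. How each consensus was formed and thresholded is not given in the sources used here, the depth per sample is unknown and the input is not used here.

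Gene spans and promoter windows came from RefSeq tables of GRCm38.p6, matched by symbol and gene identifier, and 113 protein-coding genes on unplaced or alternate sequences were left out. Overlap means at least 1 shared bp within 1 kb of an annotated end. Starts and strands were taken where the promoter table lists a start equal to a span's end (10583 genes). Genes, motifs and companion lists were chosen with earlier results of these data known. Named in full are testis variants, genes lacking a mark, the widest and narrowest peaks, peaks over most genes and divergent pairs. Overlap counting was tested on simulated data. Tools were Python 3.11.15, pandas 2.3.3, NumPy 2.4.6, SciPy 1.17.1 and matplotlib 3.10.9. Other windows, wider peaks, midpoints, starts only, run limits and shorter promoters were tried, and leaving out the 5 genes from H2bc23 to H2ac24 was added after seeing the data. Shared promoter runs, ATAC positions around starts, open bases between divergent starts and transfer RNA genes were also not among the planned results.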

Additional observations from a re-analysis of the deposited data

How the results depend on the processing

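Of the values recomputed with other settings, 203 stayed within 1.5 times the reported value or within its error and 12 moved further. No paired analysis was possible because each assay has 1 consensus list, and for the same reason no replicate could be left out. With the wider 50% of each list, 0 testis variants were open, and 3 H1 and 6 H4 genes were acetylated. With a window of 2.5 kb, 1 testis variant was acetylated and 1 had both marks, and all 6 H1 genes were open. Over the whole span from the first to the last gene of chr13, gaps included, there were 4.01 ATAC and 1.89 H3K27ac peaks per 100 kb. With 150 bases before the start only, TTTCGCGC stood in 3 promoters. Without the 5 genes from H2bc23 to H2ac24, 54 of 58 genes were open and 54 acetylated. Over all genes, the open share ran from 52.9% (starts only) to 66.6% (2.5 kb) and the acetylated share from 32.6% (wider 50%) to 52.4% (2.5 kb). Peaks too weak to enter a consensus list cannot be seen at an unknown depth.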

Other observations

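The space between the chr13 runs held 36 ATAC peaks that were at no histone gene. Of these, 19 lay within 500 bp of a transfer RNA gene, 6 within 1 kb of an end of a protein-coding gene and 11 near neither. Of 13 H3K27ac peaks there, 9 lay by a transfer RNA gene and 4 by a protein-coding gene. Between the first and last histone gene of chr13 stand 77 transfer RNA genes, of which 20 (26%) had an ATAC peak and 12 (15.6%) an H3K27ac peak within 500 bp. Over all 403 transfer RNA genes the shares were 45.2% and 29.5%.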
